A study of Cynoglossus semilaevis with 6 samples.

Results

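The 53 features described here are the liver transcripts of half-smooth tongue sole (Cynoglossus semilaevis) whose RPKM (reads scaled by feature length and by the library's total) stood out in a single library, HS_L_2. They were chosen from the RPKM values themselves. A feature with a RefSeq mRNA identifier was taken if its RPKM in HS_L_2 was at least 5 and at least 3 times the highest of the other 5 libraries, and its mean over the 6 libraries was under 500. Features on the W and Z chromosomes and hpx were left out. The rule gave 53 of 34751 deposited features, 31619 of which have an mRNA identifier. Their height in HS_L_2 is therefore a description of the choice, with no test.

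The study kept fish at 15 ppt (LS_L group) or at the rearing salinity of 30 ppt (HS_L group, the control) for 60 days and sequenced liver RNA. All fish were female, 10 months old and raised in the same ponds at 30 ppt on a prepared diet, with no genetic change in either group. There were 3 tanks in each group, and the livers of 3 fish of a tank were pooled for its library, so that a value is that of a tank pool and not of a fish. HS_L_2 is thus 1 pool of the control group, and nothing in the labels sets it apart from HS_L_1 and HS_L_3. A fish that differed from its tank mates cannot be seen within a pool. In such bulk RNA, fewer cells of a type and less RNA per cell cannot be told apart.

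In teleosts the exocrine pancreas is often not a compact organ, and its acinar cells lie scattered along vessels, in some species within the liver. Acinar cells make the zymogens and enzymes of digestion, among them trypsins, carboxypeptidases, amylase and lipases, and they carry a large secretory pathway for this. Hepatocytes, the main cells of the liver, make plasma proteins and run lipid and amino acid metabolism, in part under nuclear receptors such as the peroxisome proliferator-activated receptors.

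The libraries held between 16176689 and 19428740 reads counted on features, 19149666 of them in HS_L_2. The hepatocyte list held 28 symbols and matched 22 genes, with gene names that differ by a final a or b counted apart. Of their 31 features, 17 had a mean RPKM of at least 1. The list summed to between 59775 and 81263 RPKM in the LS_L libraries and between 79202 and 102088 in the HS_L libraries. HS_L_2 was the highest, with HS_L_3 at 100445, and apoa1b made up 51491 of the sum in HS_L_2 and 54561 in HS_L_3. fga, fgb, fgg and plg stand in this list and in the acute phase list below, so the 2 sums are not separate. Of the 17 features, HS_L_2 was the highest library for 9 and the lowest for 3. These 3 were agxtb (7.39 RPKM against 283 to 474), pah (XM_008315406.1, 343 against 602 to 730) and serpinc1 (721 against 814 to 1061). HS_L_2 stood apart in more than the members. The RPKM of all its features summed to 751415, against 913046 to 999316 in the others, and hpx alone, a hemopexin gene, took 5.43% of its reads (Wilson 95% interval 5.42% to 5.44%), against 0.0272% to 0.901% in the other libraries. Of 8581 mRNA features averaging at least 1 RPKM, HS_L_2 was the highest library for 15.4%, behind LS_L_1 (42.8%) and HS_L_1 (23.7%). HS_L_2 was the lowest for 34.6%, the largest share of the 6, with LS_L_3 next at 28.4%. These shares used unscaled RPKM. The scaling used in the fits below multiplies RPKM by 1.13 in HS_L_2 and 1.24 in LS_L_3, but by 0.796 in LS_L_1 and 0.820 in HS_L_1. The shares thus depend on the unit and do not show low expression in HS_L_2. The leukocyte list held 33 symbols and matched 27 genes by symbol or description, with 26 of 34 features above 0. It summed to 531 RPKM in HS_L_2, the lowest of the 6, and to 1683 and 920 in HS_L_1 and HS_L_3. In LS_L_1, LS_L_2 and LS_L_3 it summed to 4874, 800.3 and 826. The skeletal muscle list held 32 symbols and matched 20 genes, with 16 of 34 features above 0. It summed to between 3.92 and 50.1 RPKM in the LS_L and between 7.85 and 74.6 in the HS_L libraries. The part of any of these in the members' values was not tested.

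The members' own reads show how far HS_L_2 stood apart. They took 1.85% of the reads of HS_L_2 (Wilson 95% interval 1.85% to 1.86%). They took 0.451% (0.448% to 0.455%) in HS_L_1 and 0.189% (0.187% to 0.191%) in HS_L_3. The 3 LS_L libraries gave 0.119% (0.117% to 0.120%), 0.151% (0.149% to 0.153%) and 0.138% (0.136% to 0.140%). HS_L_2 was thus far above the other 5 by the choice of members, while HS_L_1 came next and HS_L_3 lay just above the LS_L libraries. These intervals cover at most counting error and may be too narrow even for that, since reads of PCR-amplified fragments are not independent molecules. They leave out the differences between fish and between tank pools.

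**Figure D1:**
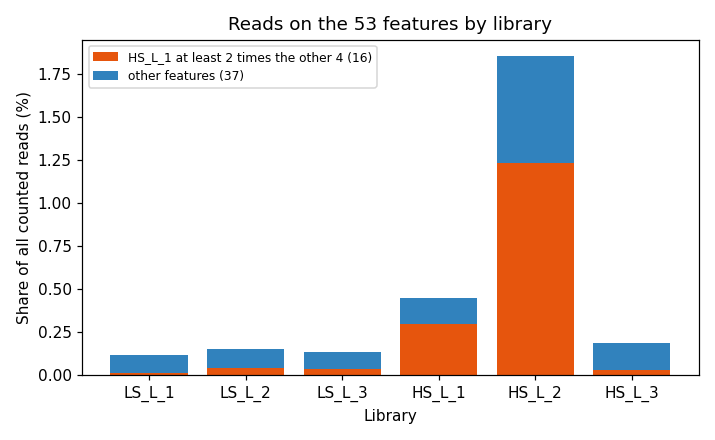
Stacked bars give the share of all counted reads (in percent, from 0) that fell on the 53 features in each library, with the 16 features at least 2 times higher in HS_L_1 than in the 4 libraries other than HS_L_1 and HS_L_2 in orange and the other 37 in blue. The bar of HS_L_2 reaches 1.85%, that of HS_L_1 0.451%, and the other 4 lie between 0.119% and 0.189%.

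The same rule with another library in the place of HS_L_2 gave 58 features for LS_L_1, 16 for HS_L_1, 3 for HS_L_3 and 0 for LS_L_2 and LS_L_3. HS_L_2 was thus not the library with most such features. When RPKM was scaled by size factors, which lowers the weight of a few very abundant transcripts, the rule gave 76 features for HS_L_2 and 37 for LS_L_1. The 76 held 51 of the 53 members and left out rras and LOC103388561.

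Among the members the RPKM in HS_L_2 ran from 5.59 (LOC103378814) to 2051 (prss1), with a median of 30.1. The ratio of HS_L_2 to the highest other library had a median of 4.00, was under 4 in 27 members and at least 5 in 11, and reached 9.31 in LOC103377202. Just inside the ratio of 3 lay LOC103396493 (3.01), LOC103389284 (3.02) and LOC103383170 (3.03), and just outside it synj2bp (2.97), the unnamed feature XM_008311127.1 (2.93) and LOC103383921 (2.92). At the RPKM threshold of 5, LOC103378814 (5.59) and lrp6 (5.65) were the nearest inside, and tet2 (4.73) and LOC103380589 (4.60) the nearest outside. HS_L_2 held at least 70 reads for every member, and under 100 for 2 of them, LOC103378814 with 70 and LOC103399527 with 79.

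**Figure D2:**
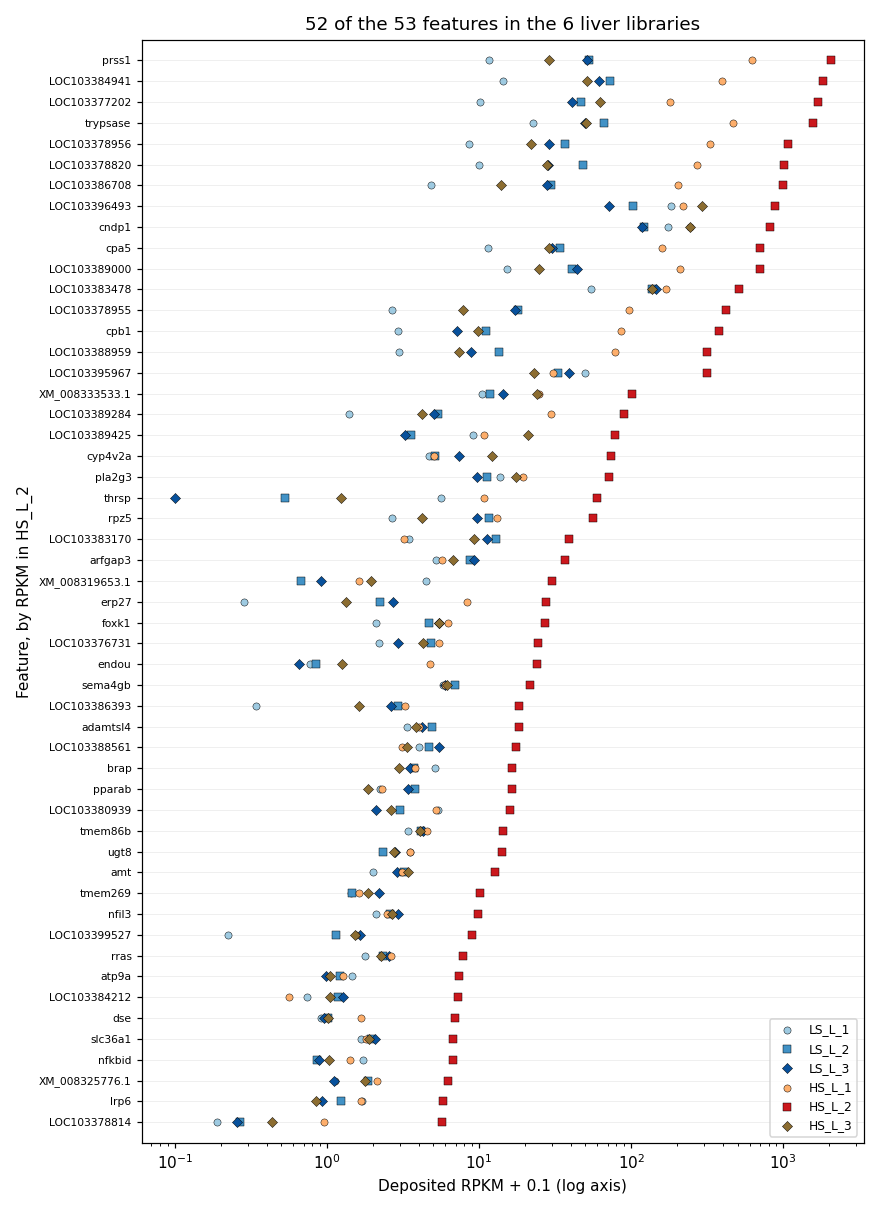
Each row is 1 of 52 of the 53 features, ordered by RPKM in HS_L_2, and each point is 1 library at its deposited RPKM plus 0.1 on a log axis (blue tones LS_L, orange, red and brown HS_L). The red squares of HS_L_2 lie to the right of all other points by the rule, from 5.59 to 2051 RPKM. In the upper rows HS_L_1 stands apart from the other 4 libraries as well, while in many lower rows the other 5 lie close together.

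Set against each other, the members showed 2 kinds of pattern in the 5 libraries other than HS_L_2. In 16 members HS_L_1 was at least 2 times the highest of LS_L_1, LS_L_2, LS_L_3 and HS_L_3, by 2.53 to 11.8 times. In the other 37 this ratio was at most 1.93, with a median of 0.873, and no library was regularly second, since HS_L_1 was second for 14, LS_L_1 and LS_L_3 for 7 each, LS_L_2 for 5 and HS_L_3 for 4. The factor of 2 was set after the values were seen, so the split has no test. The 16 were more abundant, with a median of 703 RPKM in HS_L_2 against 18.3 for the 37, and shorter, with a median feature length of 924.5 bases against 1931. The 8581 mRNA features named above had a median length of 1934 bases, and 15.7% of them were under 1000 bases, as were 12 of the 16.

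**Figure D3:**
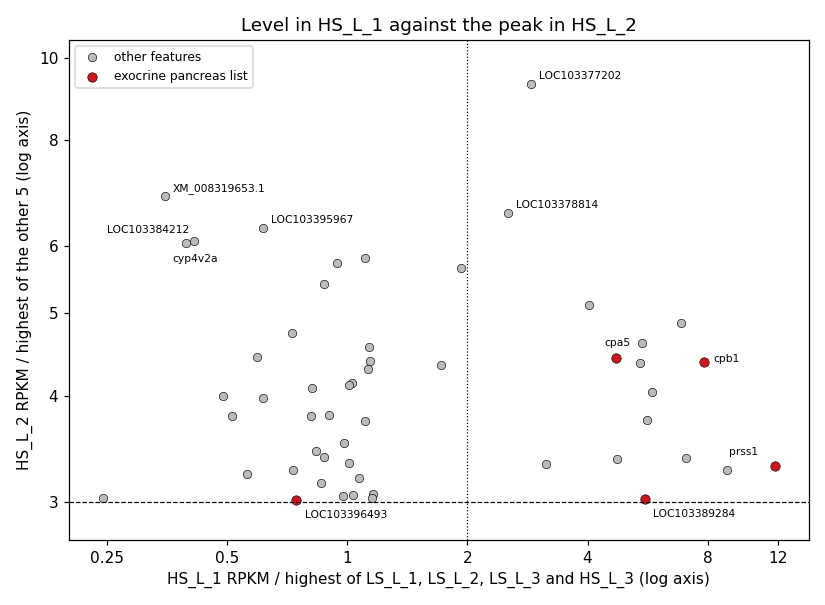
Each point is 1 of the 53 features, with the RPKM of HS_L_1 over the highest of LS_L_1, LS_L_2, LS_L_3 and HS_L_3 on the horizontal log axis and the RPKM of HS_L_2 over the highest of the other 5 on the vertical log axis. The dashed line is the rule's ratio of 3 and the dotted line the factor of 2. To the right of it lie 16 features, with 4 of the 5 members of the exocrine pancreas list (red), while LOC103396493, the fifth, lies to the left at 0.744.

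The exocrine pancreas list, described next, includes the member with the highest RPKM. prss1 (XM_008323576.1, chromosome 13, 10290827-10292092, assembly Cse_v1.0), which encodes a trypsin, a protease made in the pancreas as an inactive zymogen, had 2051 RPKM in HS_L_2, 620.1 in HS_L_1, 28.7 in HS_L_3 and 11.6, 52.6 and 50.8 in LS_L_1, LS_L_2 and LS_L_3. HS_L_2 and HS_L_1 were both far above the rest, and HS_L_3 lay within the range of the LS_L libraries, so that the groups overlapped. cpa5 (XM_008311188.1, chromosome 6, 2491165-2494352), a carboxypeptidase of the A type, which takes amino acids off the end of peptides, had 705 RPKM in HS_L_2, 159 in HS_L_1 and 28.5 in HS_L_3, and 11.4, 33.7 and 29.8 in the LS_L libraries. cpb1 (XM_008308022.1, chromosome 3, 10925548-10932376), carboxypeptidase B, which removes basic residues, had 377 RPKM in HS_L_2, 86.1 in HS_L_1 and 9.79 in HS_L_3, and 2.84, 11 and 7.02 in the LS_L libraries. In both carboxypeptidases HS_L_2 was the highest and HS_L_1 the next, HS_L_3 lay inside the LS_L range and LS_L_1 was the lowest of the 6.

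LOC103389284 (XM_008324640.1, chromosome 14, 5345358-5350206), described as bile salt-activated lipase-like, an enzyme that splits dietary lipid esters, had 89.1 RPKM in HS_L_2, 29.5 in HS_L_1 and 4.08 in HS_L_3, and 1.28, 5.29 and 4.93 in the LS_L libraries. HS_L_2 and HS_L_1 were again the highest, LS_L_1 was the lowest, and HS_L_3 lay inside the LS_L range. LOC103396493 (XM_008334595.1, chromosome 20, 10318887-10321839), described as pancreatic alpha-amylase-like, a starch-splitting enzyme, had 886 RPKM in HS_L_2, 219 in HS_L_1 and 294 in HS_L_3, and 182, 102 and 71.8 in the LS_L libraries. Here HS_L_3 was second, LS_L_1 was the highest LS_L library instead of the lowest, and all 3 HS_L libraries lay above all 3 LS_L libraries. Of these 5 genes only LOC103396493 and LOC103389284 come from the study's own list of differential genes in these libraries, which is where their descriptions were taken from.

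The exocrine pancreas list held 31 symbols. By symbol or description 13 genes of it were found, all above 0 and 12 at a mean RPKM of at least 1. LOC103396493, LOC103389284, LOC103394162, LOC103387723 and LOC103389307 were found by description. Descriptions came only from the study's own tables, so these were genes the study had already picked out from these libraries. The sums and counts of the list are in part set by that. The list summed to 5083 RPKM in HS_L_2, 1338 in HS_L_1 and 578 in HS_L_3, and to 472, 302 and 273 in LS_L_1, LS_L_2 and LS_L_3. On unscaled RPKM HS_L_2 was the highest library for 9 of the 12, 5 of which are members. The rule chose those 5 by their height in HS_L_2, and they make up most of the sum there. Neither the sum nor this count is thus independent of the rule. Among the other listed genes, pla2g1b, the pancreatic phospholipase A2, was kept out by its place on the Z chromosome. It had 609.6 RPKM in HS_L_2, 80.0 in HS_L_1 and 18.1 in HS_L_3, and 2.24, 20.7 and 22.1 in the LS_L libraries, with HS_L_3 inside the LS_L range. LOC103394162, described as trypsin-3-like, reached 78.9 RPKM in HS_L_2 and 38.9 in HS_L_1, against 1.02 to 2.74 in the other 4, and missed the ratio of 3.

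On unscaled RPKM ptf1a and rbpjl, transcription factors of acinar cells, did not peak in HS_L_2. ptf1a, a factor that defines the exocrine pancreas, had 3.19 RPKM in HS_L_2, 4.28 in HS_L_1 and 1.14 in HS_L_3, and 0.519, 0.439 and 0.555 in the LS_L libraries. rbpjl, its partner in the acinar cell, had 7.54 RPKM in HS_L_2, 14.0 in HS_L_1 and 3.80 in HS_L_3, and 3.05, 4.08 and 3.80 in the LS_L libraries. Both were higher in HS_L_1 than in HS_L_2, and both were higher in these 2 libraries than in the other 4. The scaling used in the fits multiplies RPKM by 1.13 in HS_L_2 and 0.820 in HS_L_1. With it ptf1a was slightly higher in HS_L_2 than in HS_L_1, so its order depends on the unit, while rbpjl kept its order. bhlha15, which acts in secretory cells, was the highest in HS_L_2 (2.99 RPKM against 0.220 to 1.26). LOC103387723, described as an inactive pancreatic lipase-related protein, was the highest in HS_L_1 (13.4 RPKM) with 7.53 in HS_L_2. The remaining genes of the list varied in which library was second. spink4, a protease inhibitor of the Kazal type, had 263 RPKM in HS_L_2 and 254 in LS_L_1, with 67.4 to 184 in the other 4. LOC103389307, a further bile salt-activated lipase-like gene, had 2.61 RPKM in HS_L_2 and at most 0.872 elsewhere. The endocrine pancreas list held 20 symbols and matched 16 genes, with 12 of 22 features above 0. Their sum was 0.904 to 4.92 RPKM in the HS_L and 1.46 to 4.31 in the LS_L libraries, with 3.11 in HS_L_2. The part of pancreatic cells in the members' values was not tested.

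**Figure D4:**
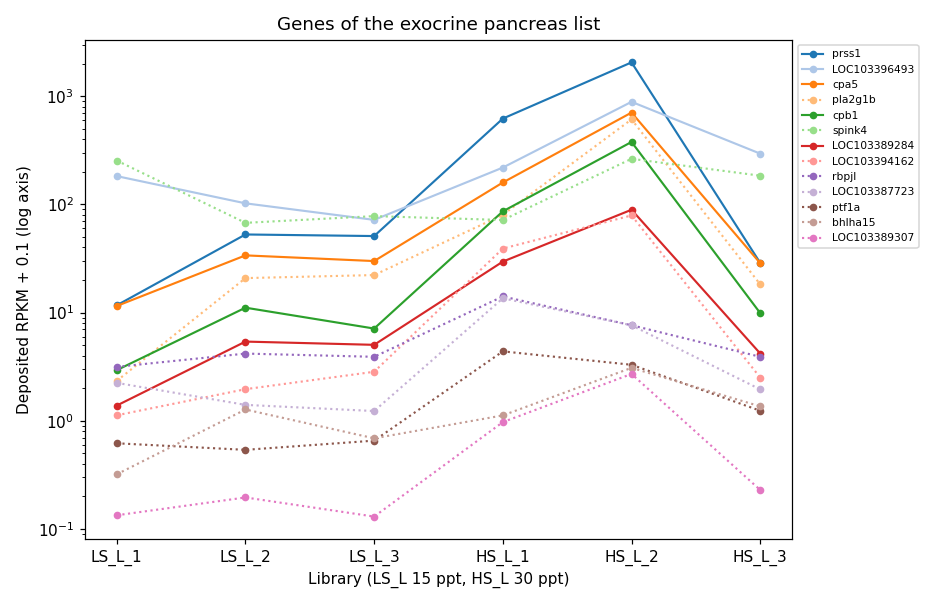
Lines give the deposited RPKM plus 0.1 (log axis) of the 13 genes of the exocrine pancreas list in the 6 libraries, solid for the 5 members and dotted for the other 8. The lines of prss1, cpa5, cpb1 and LOC103389284 run in parallel, with their lowest point in LS_L_1, a step up in HS_L_1 and their highest point in HS_L_2, and those of ptf1a and rbpjl peak in HS_L_1.

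A further 12 members shared the raised HS_L_1 but stand in no list, and 9 of these were known only by a locus symbol, for which no description was used here. LOC103384941 had 1833 RPKM in HS_L_2, 397 in HS_L_1 and 50.7 in HS_L_3, and 14.3, 72.4 and 61.2 in the LS_L libraries. LOC103377202 had the largest ratio of the members, with 1681 RPKM in HS_L_2, 181 in HS_L_1 and 62.4 in HS_L_3, and 10.1, 46.9 and 40.7 in the LS_L libraries. Both had LS_L_1 as their lowest library, but in LOC103377202 HS_L_3 lay above the LS_L libraries. The feature matched by position to trypsase had 1570.5 RPKM in HS_L_2, 465 in HS_L_1 and 50.2 in HS_L_3, and 22.6, 65.8 and 49.4 in the LS_L libraries. LOC103378956, LOC103378820 and LOC103386708 had 1074, 1015 and 990.1 RPKM in HS_L_2, between 203 and 329 in HS_L_1 and at most 48.0 in the other 4 libraries. LOC103389000, LOC103378955, LOC103388959 and LOC103378814 had 701, 422, 315 and 5.59 RPKM in HS_L_2 and 3.37 to 6.57 times less in HS_L_1. LOC103378814 rests on few reads, with 9 in HS_L_1 and 4 in HS_L_3. On scaled RPKM its HS_L_1 fell just under the factor of 2. Another feature of this locus, at 6686212-6688178, is not a member and had 3.07 RPKM in HS_L_2 and 1.82 in HS_L_1. LS_L_1 was the lowest of the 6 libraries for 15 of the 16 members with raised HS_L_1, endou being the exception. LS_L_1 was also the lowest for 18 of the other 37 members, and for 9.87% of the 8581 mRNA features. By the rule HS_L_2 cannot be the lowest library of a member, while it was the lowest for 34.6% of those features. The member counts and this share thus have unlike bases.

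Of the 12, erp27 and endou had a name with a known role. erp27 (chromosome 9, 9228736-9233474), a non-catalytic member of the protein disulfide isomerase family in the endoplasmic reticulum, had 27.4 RPKM in HS_L_2, 8.26 in HS_L_1 and 1.23 in HS_L_3, and 0.184, 2.13 and 2.62 in the LS_L libraries. endou (chromosome 11, 4075022-4078044), an endonuclease that cuts RNA at uridines, had 23.7 RPKM in HS_L_2, 4.65 in HS_L_1 and 1.15 in HS_L_3, and 0.668, 0.744 and 0.558 in the LS_L libraries. All 3 HS_L libraries lay above the LS_L libraries for endou, while for erp27 HS_L_3 was below LS_L_2 and LS_L_3. endou was also in the study's list of differential genes.

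Several members lay side by side on a chromosome. Within 100 kb of each other were 5 pairs, 4 of them with no annotated feature between the partners and both partners on the same strand. On chromosome 5, LOC103378955 and LOC103378956 were 2.50 kb apart, and LOC103378814 and LOC103378820 were 2.39 kb apart. LOC103378813, nearby on the same strand at 6681024-6682905, was left out only by its mean over 500, with 2519 RPKM in HS_L_2, 713 in HS_L_1 and 23.5 to 168 in the other 4. On chromosome 13, trypsase and LOC103389000 were 2.04 kb apart, and on chromosome 3, LOC103377202 and cpb1 were 79.1 kb apart with 10 features between them. All partners of these 4 pairs had the raised HS_L_1. Whether neighbours are copies of a gene was not tested, and since the authors removed reads mapping to several places, the levels of near-identical copies would be uncertain.

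The fifth pair, LOC103383478 and foxk1 on chromosome 9, was 0.516 kb apart. foxk1, a forkhead transcription factor, had 26.8 RPKM in HS_L_2, 6.11 in HS_L_1 and 5.35 in HS_L_3, and 2.00, 4.61 and 5.30 in the LS_L libraries. LOC103383478 had 514 RPKM in HS_L_2, 168 in HS_L_1 and 137 in HS_L_3, and 54.4, 137 and 145 in the LS_L libraries. The pair thus shared LS_L_1 as the lowest library and a narrow range over the other 4 besides HS_L_2. foxk1 also overlaps 2 other features of its own gene, and in the authors' counting a read on overlapping features counts for neither, so its level is uncertain.

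Secreted and plasma proteins followed. cndp1 (XM_008323894.1, chromosome 13, 16006114-16015143), a dipeptidase that splits carnosine and in mammals circulates in plasma, had 812 RPKM in HS_L_2, 244 in HS_L_1 and 242 in HS_L_3, and 173, 121 and 118 in the LS_L libraries. LOC103389425 (chromosome 14, 8685143-8686716), described as pentraxin fusion protein-like in the study's list of differential genes, belongs to a family of pattern-binding plasma proteins. It had 78.7 RPKM in HS_L_2, 10.7 in HS_L_1 and 20.8 in HS_L_3, and 8.95, 3.48 and 3.15 in the LS_L libraries, and it overlaps cldn10d on the opposite strand, so that some of its reads may be lost or misplaced. pla2g3, a secreted phospholipase A2, had 71.8 RPKM in HS_L_2, 19.2 in HS_L_1 and 17.4 in HS_L_3, and 13.5, 11.2 and 9.57 in the LS_L libraries. In all 3 genes the HS_L libraries lay above the LS_L libraries, with HS_L_1 and HS_L_3 nearer to them than to HS_L_2.

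The acute phase and plasma protein list held 24 symbols and matched 15 genes by symbol or description, with 15 of 16 features above 0. It summed to 104166 RPKM in HS_L_2, of which hpx made up 32032. The sums were 53127 and 55341 in HS_L_1 and HS_L_3 and 44655 to 46084 in the LS_L libraries. hpx had 5311 RPKM in HS_L_1, 2528 in HS_L_3 and 161 to 777 in the LS_L libraries, so that like prss1 it was second in HS_L_1. LOC103389425 was the only one of the 16 features that is a member. tfa, a transferrin, was the highest in HS_L_2 (26542 RPKM against 9939 to 13761), as were the fibrinogen genes fgg (10281 against 6080 to 9076) and fgb (9502 against 4763 to 7802), all below the ratio of 3. hamp, the iron hormone hepcidin, had 1065 RPKM in HS_L_2 and its highest value, 7981, in LS_L_1, and cebpd, a transcription factor of the acute phase, was the lowest in HS_L_2 (7.0 RPKM against 18.8 to 32.9). A peak in HS_L_2 was thus not shared by the list as a whole. On unscaled RPKM HS_L_2 was the highest library for 9 and the lowest for 2 of the 14 features at a mean RPKM of at least 1.

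In some members with a role in lipid metabolism, picked out by their known role and not from a list, HS_L_1 was not raised by the factor of 2. pparab (chromosome 6, 13786050-13806074), a peroxisome proliferator-activated receptor alpha, which switches on fatty acid oxidation in the mammalian liver, had 16.3 RPKM in HS_L_2, 2.19 in HS_L_1 and 1.74 in HS_L_3, and 2.12, 3.67 and 3.31 in the LS_L libraries. cyp4v2a (chromosome 9, 18723061-18729247), a cytochrome P450 whose human counterpart hydroxylates the end of fatty acid chains, had 73.0 RPKM in HS_L_2, 4.95 in HS_L_1 and 12 in HS_L_3, and 4.56, 4.99 and 7.27 in the LS_L libraries. HS_L_1 lay at the LS_L level for both, unlike in prss1, cpa5, cpb1 and LOC103389284. thrsp (chromosome 4, 10449719-10450348), which in mammals promotes fatty acid synthesis, had 59.8 RPKM in HS_L_2, 10.6 in HS_L_1 and 1.14 in HS_L_3, and 5.5, 0.43 and 0 in the LS_L libraries. The 5 other libraries spread widely and the groups overlapped, with 0, 5 and 13 reads in LS_L_3, LS_L_2 and HS_L_3. ugt8, which makes galactosylceramide, and tmem86b, which in mammals degrades lysoplasmalogens, had 14.0 and 14.2 RPKM in HS_L_2, and 2.23 to 3.41 and 3.32 to 4.45 in the other 5.

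The genes of the fasting and glucose list include no member. Of its 13 features at a mean RPKM of at least 1, HS_L_2 was the highest library for 4 and the lowest for 4 on unscaled RPKM. g0s2, an inhibitor of fat breakdown, had 117 RPKM in HS_L_2, 15.9 in HS_L_1 and 2.83 in HS_L_3, and 25.8, 46.4 and 56.5 in the LS_L libraries, so that LS_L_2 and LS_L_3 kept it under the ratio of 3. angptl4, which inhibits lipoprotein lipase, had 45.9 RPKM in HS_L_2 and 15.7 to 38.3 elsewhere. lpla (70.7 RPKM against 16.9 to 41.2) and pdk4 (4.63 against 2.50 to 4.52) were also highest in HS_L_2. The 4 lowest there were igfbp1a (0.720 RPKM against 6.45 to 25.5), pdk2a (7.68 against 13.3 to 21.4), fasn (8.99 against 9.57 to 19.8) and pck2 (110 against 112 to 160). For fasn and pck2 this depends on the unit, since on scaled RPKM HS_L_1 lay below HS_L_2.

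Other members are known from transcription and signalling. nfil3 (chromosome 14, 16625129-16628814), a leucine zipper repressor linked to the daily clock and to immune cells in mammals, had 9.76 RPKM in HS_L_2 and 2.01 to 2.84 in the other 5. nfkbid, a nuclear inhibitor of NF-kappaB, had 6.59 RPKM in HS_L_2 and 0.757 to 1.61 in the others. lrp6, a co-receptor for Wnt ligands, had 5.65 RPKM in HS_L_2 and 0.750 to 1.61 in the others. All 3 were low in each of the other libraries, where the groups overlapped. brap, which binds BRCA1 and acts in Ras signalling, had 16.4 RPKM against 2.89 to 5.02, sema4gb, a semaphorin, 21.5 against 5.65 to 6.82, and rras, a small GTPase, 7.72 against 1.67 to 2.53. sema4gb had the narrowest range of all members over the other 5 libraries, with its highest 1.21 times its lowest. rras overlaps prrg2 on its strand and fell outside the rule when RPKM was scaled.

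A few members are known from transport, metabolism or the matrix. atp9a (chromosome 10, 15004867-15033487), a lipid-flipping ATPase of endosomal membranes, had 7.30 RPKM in HS_L_2, 1.18 in HS_L_1 and 0.946 in HS_L_3, and 1.35, 1.12 and 0.885 in the LS_L libraries. slc36a1, which moves small amino acids with protons, had 6.65 RPKM in HS_L_2 against 1.57 to 1.96 in the other 5, and arfgap3, an ARF GTPase-activating protein of the Golgi, 36.3 against 5.12 to 9.16. adamtsl4, a secreted matrix protein, had 18.3 RPKM in HS_L_2 against 3.27 to 4.83. In all 4 genes the groups overlapped once HS_L_2 was set aside. amt, part of the glycine cleavage system, dse, which forms dermatan sulfate, rpz5 and tmem269 had 12.6, 6.86, 55.9 and 9.96 RPKM in HS_L_2, with 13 as the highest value of any of them in another library. rpz5 varied most of these 4, from 2.56 to 13 RPKM in the other 5 libraries. tmem269 overlaps other features of its gene, 1 of which had 77.4 RPKM in HS_L_2 and 33.9 to 57.3 elsewhere.

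The remaining members carried a locus symbol or none. LOC103395967 (chromosome 2, 6476078-6478625) was the most abundant of them with 314 RPKM in HS_L_2, 30.6 in HS_L_1 and 22.8 in HS_L_3, and 49.8, 33.1 and 39.0 in the LS_L libraries. It was the only member of over 100 RPKM in HS_L_2 that was lower in HS_L_1 and HS_L_3 than in every LS_L library. XM_008319653.1 (chromosome 11, 972905-976938) had 30.1 RPKM in HS_L_2, 1.53 in HS_L_1 and 1.84 in HS_L_3, and 4.38, 0.574 and 0.817 in the LS_L libraries. Novel00143, an unannotated feature of the authors' table at 978534-981686 of the same chromosome, had 69.3 RPKM in HS_L_2, with 18.8 in LS_L_1 as the next. The pair shared LS_L_1 in the second place. XM_008333533.1 had 102 RPKM in HS_L_2, 24.6 in HS_L_1 and 24 in HS_L_3, and 10.3, 11.6 and 14.2 in the LS_L libraries, and XM_008325776.1 6.11 RPKM in HS_L_2 and 1.01 to 2.02 in the others. LOC103376731, LOC103383170, LOC103386393, LOC103388561 and LOC103380939 lay between 15.9 and 38.9 RPKM in HS_L_2 with at most 12.8 elsewhere, and LOC103399527 and LOC103384212 had 8.85 and 7.14 RPKM with at most 1.55 elsewhere. LOC103383170 and LOC103384212 overlap features on the opposite strand, none of them above 0.525 RPKM.

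On the Z and W chromosomes 7 further mRNA features passed the RPKM conditions and the limit on the mean, pla2g1b among them. LOC103398106, next to pla2g1b on the Z chromosome, had 209 RPKM in HS_L_2, 49.6 in HS_L_1 and 2.41 to 7.09 in the other 4, so that HS_L_1 was raised too. LOC103397361 (Z), described as perforin-1-like, had 86.2 RPKM in HS_L_2, 27.3 in HS_L_1 and 0.553 to 4.74 in the other 4. LOC103398308 (Z) had 7.40 RPKM in HS_L_2, 0.0795 in HS_L_3 and was listed at 0 in the other 4. LOC103397244 (W) had 72.4 RPKM in HS_L_2 and 2.65 to 10.6 in the others. These were set aside by the rule and enter no count of members.

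The study asked how liver expression differed after acclimation to low salinity, and HS_L_2 is 1 of the 3 control pools of that comparison. Limma was run on log2 of the scaled RPKM plus 1, over all features averaging at least 1 RPKM, and differentially expressed genes (DEGs) were those beyond a log2 fold change of 1 at a p under 0.05 after Benjamini-Hochberg adjustment. The study's own test, on read counts of these libraries, also listed some members as differential. That test used HS_L_2 too, so the listing is only a description. With all 6 libraries, the limma fit gave 4 of 9343 features tested (0.0428%) and 0 of the 53 members as DEGs. The study's test, at the same thresholds of adjusted p and fold change, called many more features, so 0 members called by limma says little. The rule chose the members on the HS_L_2 values that enter this fit, so every count of members in it is given as a description from which nothing is read. All 53 members had a negative fold change (LS_L over HS_L), as did 45.8% of all features. At an unadjusted p under 0.05, 8 members were lower in LS_L, with 2.86% of all features so called, and 0 were higher (3.71%). The groups did not overlap, with LS_L lower, for 9 members (5.16% of all features), and with LS_L higher for 0 (5.14%). These 9 include LOC103378814, which reaches a mean RPKM of 1 only through HS_L_2 (0.320 without it). The lowest adjusted p of a member was 0.717, for LOC103389425. For prss1 the log2 fold change was -3.34 (SE 1.55, adjusted p = 0.779).

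The comparison least bound to the rule leaves HS_L_2 out, since the rule uses the other 5 libraries only through their highest value. It set the 3 LS_L libraries against HS_L_1 and HS_L_3 and tested 51 members, because LOC103378814 and LOC103384212 fell under a mean RPKM of 1. None of the 51 was a DEG by limma or by limma-voom on the recovered reads, with 2 DEGs among 9369 features (0.0213%) by limma and 0 by limma-voom. At an unadjusted p under 0.05, 6 members were lower in LS_L, against 2.92% of all features, and 1 was higher, against 3.49%. The lowest adjusted p of a member was 0.702. The groups did not overlap for 8 members lower in LS_L (9.74% of all features) and 3 higher (8.2%). The fold change was negative for 36 of the 51 members and for 46.3% of all features, and its median was -0.32 on the log2 scale for the members and 0.02 for all. For the 15 tested members with raised HS_L_1 a negative sign is largely set by how they were picked out.

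The 6 members lower in LS_L at this level were LOC103389425 (log2 fold change -1.41, SE 0.45, adjusted p = 0.711 by limma), LOC103396493 (-1.10, SE 0.37, adjusted p = 0.718), endou (-0.98, SE 0.35, adjusted p = 0.738), XM_008333533.1 (-0.87, SE 0.34, adjusted p = 0.763), cndp1 (-0.74, SE 0.26, adjusted p = 0.726) and pla2g3 (-0.55, SE 0.18, adjusted p = 0.702). For all 6 genes HS_L_1 and HS_L_3 lay above the 3 LS_L libraries. HS_L_2 is the highest library of every member by the rule, so its place adds nothing to this. LOC103395967 was the 1 member higher in LS_L, with 0.68 (SE 0.23, adjusted p = 0.718 by limma). No member passed the adjusted threshold, so none is shown to differ between the salinities by this fit. The study's own test listed LOC103389425, LOC103396493, endou and LOC103389284 as differential. It used read counts with HS_L_2 included, the library by which the rule chose them. Unlike the amylase-like LOC103396493, the digestive enzymes prss1 (-1.94, SE 1.38), cpb1 (-1.97, SE 0.93) and cpa5 (-1.43, SE 0.84) had larger differences and larger errors. In these enzymes HS_L_1 and HS_L_3 themselves lay far apart. pparab (0.51, SE 0.32), nfil3 (0.06, SE 0.29), atp9a (0.08, SE 0.18) and lrp6 (0.09, SE 0.21) were within 2 SE of 0.

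**Figure D5:**
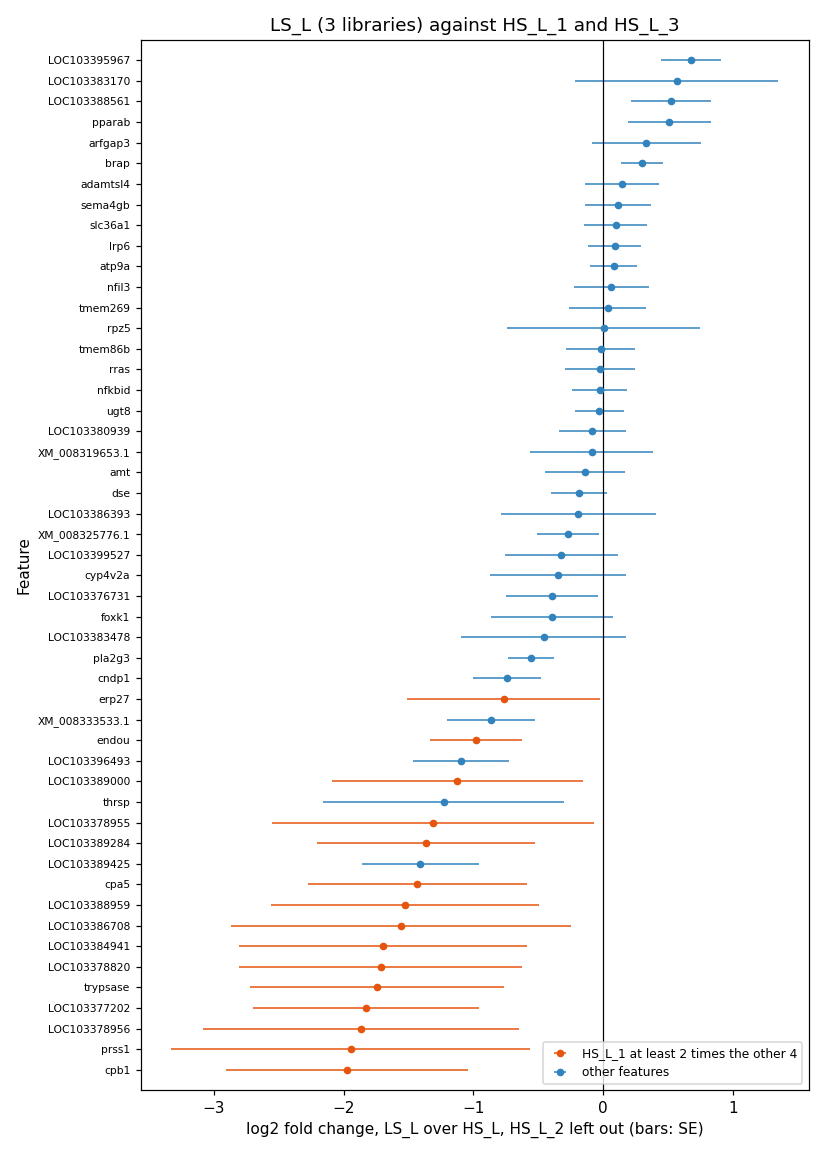
Points give the log2 fold change of LS_L over HS_L with HS_L_2 left out, and bars 1 SE on each side from limma, for 50 of the 51 members tested, orange for the 15 with HS_L_1 at least 2 times the other 4 libraries and blue for 35 others. The orange points lie between -1.97 and -0.77 with wide bars, and the blue points run from -1.41 to 0.68.

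These values rest on few pools. At an unadjusted p under 0.05, 6 members were lower in LS_L with all 5 libraries, beside 274 of all 9369 features. The number was 0 without LS_L_2 (166 of 9390 features) and 1 without LS_L_3 (172 of 9564). The number higher in LS_L was 1 with all 5 libraries (327 of 9369 features). It was 5 without LS_L_1 (637 of 9195) and 0 without LS_L_3 (129 of 9564). The members' median log2 fold change of -0.32 became -0.09 without LS_L_1, -0.11 without HS_L_1, -0.51 without LS_L_3 and -0.51 with limma-voom. The 36 of 51 negative values became 28 of 50 without LS_L_1. Those of all features went from 4342 of 9369 to 4223 of 9195. Without HS_L_3, the log2 fold change was -0.78 for LOC103389425, -0.69 for LOC103396493 and -1.54 for endou. With the replicate number as a block, 2 members were lower in LS_L at an unadjusted p under 0.05, beside 274 of all 9369 features. The DEGs among all features were 0 with the block in both fits. The DEGs among all features numbered 31 without LS_L_1 and 0 without any of the other 4.

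The authors' transcript event files, a readout of the same libraries and not independent of the rule, list FPKM of assembled transcripts. Events were given for 30 members, in all 6 libraries for 26 of them and with an FPKM above 0 in all 6 for 22. The highest FPKM of any transcript was in HS_L_2 for 19 of the 22, and for 15 it was at least 3 times that of every other library. prss1 had 1937 FPKM in HS_L_2, 579 in HS_L_1 and 26.4 in HS_L_3, and 10.4, 49.1 and 48.4 in the LS_L libraries, close to its RPKM. Among the 22, the 3 members highest in another library were adamtsl4 (19 in HS_L_2, 21.5 in HS_L_3), LOC103386393 (18.1 in HS_L_2, 23.7 in LS_L_3) and XM_008325776.1 (3.98 in HS_L_2, 12.8 in HS_L_1). trypsase had no event in HS_L_2 and was outside this count. Its highest FPKM, in HS_L_1, was listed as 404766, far from its RPKM of 465 there. A splicing event was listed for 12 members in any library and for 3 in HS_L_2, so that few members had more than the ends of their transcripts recorded.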

How the data were processed

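Groups follow the sample labels. The authors aligned the reads with TopHat to the tongue sole genome, kept uniquely mapped reads and counted them with HTSeq in union mode, with no strand setting stated. They deposited RPKM per library, a table of positions and lengths with a signal per group (mean of reads divided by size factors), and 1 event file per library with the FPKM of assembled transcripts. From RPKM and feature length the whole read numbers were recovered (99.7% to 99.8% of values whole within 0.02 reads). They set the size factors (medians of ratios, 0.868 to 1.20), and the deposited group signal came out within 0.1% for 99.98% of features with a value. The submitters' processing notes name TopHat2 2.0, Bowtie2 2.0.6 and DESeq.

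The members and gene lists were chosen with earlier results of these data known. Limma (lmFit, eBayes with trend and robust settings, no covariate) used log2 of scaled RPKM plus a pseudocount of 1, which makes fold changes of low features smaller than they are, over features averaging at least 1 RPKM. Alternatives were TMM factors, library size only, a pseudocount of 0.1, no filter, limma-voom on recovered reads, the replicate number as a block, each library left out, and other thresholds of the rule. The deviations of same-numbered libraries from their group means correlated at 0.173, 0.165 and 0.232, and those of the crossed pairs at -0.457 to 0.221. Tested on simulated data with 200 features changed by a log2 fold change of 2, the fit on 6 libraries recovered 94.5% and the fit without HS_L_2 85%, with 5 and 18 false calls. The simulated reads had the same dispersion (spread beyond counting error) of 0.1 for every feature and were not scaled. Features that spread more widely between pools, as prss1 did, were not simulated, so these rates do not give the power here.

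Named were the members of the lists or of the study's tables, the 12 with the highest RPKM in HS_L_2, the 12 with the largest ratio, those next to the ratio of 3, those at an unadjusted p under 0.05 without HS_L_2, those within 100 kb of another, and listed non-members for comparison. The other members, the genes of the fasting and glucose list, LOC103378813, Novel00143 and the Z and W features were named after their values were seen. The values of 1 member are not reported here. Of the members, 38 were named by RefSeq accession, 8 by position, 4 from the study's tables and 3 not at all. R 4.3.3, limma 3.58.1, Python 3.11.15, pandas 2.3.3 and scipy 1.17.1 were used.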

Additional observations from a re-analysis of the deposited data

How the results depend on the processing

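The number of members was 131 at a ratio of at least 2, 11 at a ratio of at least 5 and 112 at an RPKM of at least 1 in HS_L_2, and stayed within 1.5 times of 53 under the other rule settings (41 to 60, with 76 on scaled RPKM). With 6 libraries, the 4 DEGs became 10 with library size only, 1 with no filter and 0 with the replicate block, and with each library left out they ranged from 0 (without LS_L_2, LS_L_3, HS_L_1 or HS_L_3) to 17 (without LS_L_1), with 2 without HS_L_2. With HS_L_2 left out, the 2 DEGs became 0 with no filter, with limma-voom and with the replicate block, and ranged from 0 to 31 with a further library left out. In that fit, the number of members lower in LS_L at an unadjusted p under 0.05 was 2 with the block (274 of all 9369 features). It was 4 without LS_L_1 (489 of 9195), 0 without LS_L_2 (166 of 9390) and 1 without LS_L_3 (172 of 9564). With 6 libraries, where the rule used the same values, that number was 8 (267 of all 9343 features) and 13 with library size only (273 of 9343). It was 2 without LS_L_1 (286 of 9222) or LS_L_2 (206 of 9375). Without LS_L_3 it was 1 (198 of 9528), and without HS_L_3 21 (276 of 9408). For the 7 members named at that level, the fold change kept its sign in all 76 values under the alternatives. In all 7 the groups did not overlap without HS_L_2, so the sign was all but fixed in advance and its keeping shows no robustness. The size of the fold change moved with the library left out (from -2.04 to -0.78 for LOC103389425). Library size alone moved the split of all features at an unadjusted p under 0.05 from 347 higher and 267 lower to 196 and 273 with 6 libraries, and from 327 and 274 to 159 and 283 without HS_L_2. Where 1 pool was left in a group it was assumed to vary like the others.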
